A study of Mus musculus with 5 samples.

Results

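The cytosolic ribosomal protein genes were examined in Ba/F3, an interleukin-3 dependent line of mouse B-cell precursors, after infection with lentivirus. A gene was taken as a member when its symbol was RPL or RPS followed by a number and an optional A, X or L ending, or was RPLP0, RPLP1, RPLP2 or RPSA, and its description did not name a pseudogene. This gave 82 of the 50867 genes in the table, 50 of the large ribosomal subunit and 32 of the small. No measured value entered that choice. The groups were labelled S_PXT1_K118R, S_PXT1, WT_K118R, WT and PMSCV, with 1 library each. All 5 shared the same cell line and infection with a lentivirus. K118R is the notation of a lysine to arginine substitution, and the labels do not spell out S, WT or PMSCV. The study as titled asks how transcript stability bears on a fusion oncogene in paediatric leukaemia. With 1 library a group, no difference has a replicate check and none was tested, so each is given with the 95% interval from counting error alone.

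A ribosome is built from a small subunit, which reads the messenger RNA, and a large subunit, which joins amino acids into protein. Each subunit is a core of ribosomal RNA held by proteins, most of which are needed in equal numbers. Their messenger RNAs are among the most abundant of growing cells, and most begin with a terminal oligopyrimidine (TOP) tract through which mTOR signalling controls their translation. The human genome holds many processed pseudogenes of these genes, copies that were made from the messenger RNA and share most of its sequence.

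The values are read counts on human gene models, although the labels give mouse cells, and library totals ran from 250409 to 351693 counts. Levels are given in counts, or in CPM, counts scaled to a common library size and adjusted between libraries by the trimmed mean of M values. Because a mouse read is counted on a human model only as far as its sequence allows, levels are compared mainly between libraries. S_PXT1_K118R and S_PXT1 stood apart from the rest, with 7044 and 7393 genes detected, against 11504 in WT_K118R, 11712 in WT and 11492 in PMSCV. Of 12 markers of Ba/F3 and lymphoid cells, 5 (IL3RA, CD79A, CD79B, VPREB1 and IGLL1) had 0 counts in every library, as did PXT1, the gene named in the construct labels. The list summed to 215 counts in S_PXT1_K118R, 345 in S_PXT1, 134 in WT_K118R, 313 in WT and 216 in PMSCV, nearly all on 2 transcription factors of blood cells. SPI1 had 128, 139, 1, 173 and 113 of these counts and GATA2 had 84, 202, 123, 128 and 96. Markers of squamous epithelium summed to 0 counts in S_PXT1_K118R and in S_PXT1, against 371 in WT_K118R, 938 in WT and 252 in PMSCV. The 3 prostate markers found summed to 0, 0, 92, 77 and 71 counts in the same order, with MSMB at 0 throughout. Smooth muscle markers summed to 0, 1, 2, 278 and 65 counts, and plasma cell markers to 2, 2, 22, 425 and 636. Fibroblast markers summed to 195, 187, 587, 453 and 437 counts. The part of these reads in the results below was not tested.

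Counts on the ribosomal protein genes were concentrated on a few members. RPLP0 (ENSG00000089157, chromosome 12, 120196686 to 120201235 on a human build that the sources do not name) anchors the lateral stalk that recruits translation factors to the large subunit. RPLP0 had 2675 counts in S_PXT1_K118R, 2712 in S_PXT1, 3022 in WT_K118R, 3587 in WT and 2032 in PMSCV. RPS4X (ENSG00000198034, chromosome X, 72255679 to 72277300), an X-linked protein of the small subunit body, had 880, 938, 1033, 1204 and 900 counts in that order. RPL11 (ENSG00000142676, chromosome 1, 23691779 to 23696425) binds 5S ribosomal RNA and, when free of the ribosome, the p53 regulator MDM2. Its counts were 303 in S_PXT1_K118R, 324 in S_PXT1, 441 in WT_K118R, 394 in WT and 330 in PMSCV. These 3 were the members averaging 200 counts or more, and together they took 73.6% of all member counts in S_PXT1_K118R, 77.2% in S_PXT1, 68.0% in WT_K118R, 67.6% in WT and 61.9% in PMSCV. The next member by count, RPL3, had a mean of 86.2 counts. RPLP0 alone took 51.0% of the member counts in S_PXT1_K118R and 52.7% in S_PXT1, against 45.7% in WT_K118R, 46.8% in WT and 38.5% in PMSCV.

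**Figure D1:**
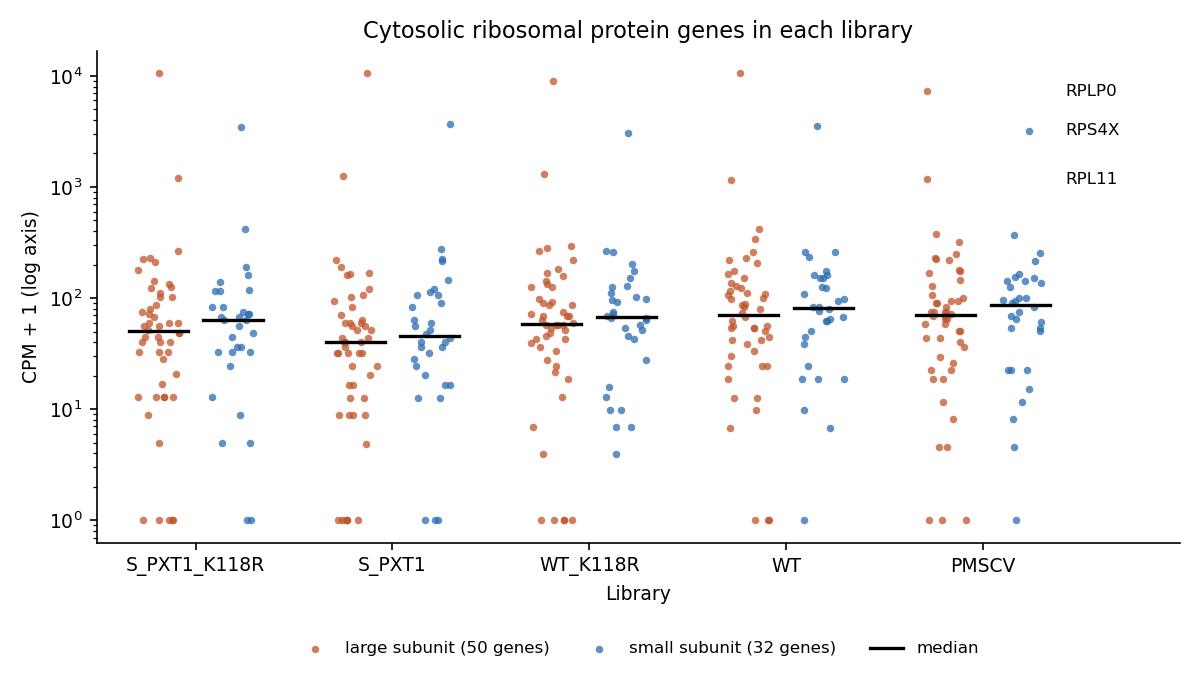
Level of each of the 82 genes in each library, as CPM plus 1 on a log axis, with the large and small subunit in separate columns and a black bar at the median. RPLP0, RPS4X and RPL11 lie above all other members in every library, and the medians are lowest in S_PXT1, where they correspond to 10 counts for the large and 11.5 counts for the small subunit.

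Per length the same 3 members stood highest. In the deposited FPKM values (counts scaled to gene length and library size), RPLP0 stood at 908 in S_PXT1_K118R, 891 in S_PXT1, 739 in WT_K118R, 867 in WT and 648 in PMSCV. RPS4X stood at 833, 859, 705, 812 and 801 FPKM in the same order. The median FPKM of the 50 large subunit genes was 8.35 in S_PXT1_K118R, 6.10 in S_PXT1, 9.39 in WT_K118R, 10.6 in WT and 11.6 in PMSCV. For the 32 small subunit genes the medians were 9.56, 9.21, 12.1, 14.5 and 17.3 FPKM. The highest member was thus between 62.3 and 121 times the median FPKM of all members. Most of the proteins are used in equal numbers in the ribosome. After RPL11, the highest mean FPKM values belonged to RPL10A, RPS6 and RPL12.

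As a share of all counts, large subunit genes took 1.51% in S_PXT1_K118R (exact binomial interval 1.47 to 1.56), 1.42% in S_PXT1 (1.37 to 1.46), 1.36% in WT_K118R (1.32 to 1.40), 1.56% in WT (1.517 to 1.599) and 1.33% in PMSCV (1.29 to 1.37). Small subunit genes took 0.581% (0.551 to 0.611), 0.570% (0.541 to 0.600), 0.543% (0.519 to 0.568), 0.624% (0.598 to 0.650) and 0.646% (0.616 to 0.677) in the same order. The lowest large subunit share, in PMSCV, and the next, in WT_K118R, had overlapping intervals, as did the highest small subunit shares, in PMSCV and WT. The lowest large subunit share lay in WT_K118R when pseudogene rows were added, and in S_PXT1 by summed FPKM. Without RPLP0, RPS4X and RPL11, the other 48 large subunit genes summed to 3184 CPM in S_PXT1_K118R, 2472 in S_PXT1, 3728 in WT_K118R, 4381 in WT and 4225 in PMSCV. The other 31 small subunit genes summed to 2257, 2097, 2537, 2892 and 2930 CPM. Both of these sums were lowest in S_PXT1 and next lowest in S_PXT1_K118R, the libraries with the highest RPLP0 in CPM.

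**Figure D2:**
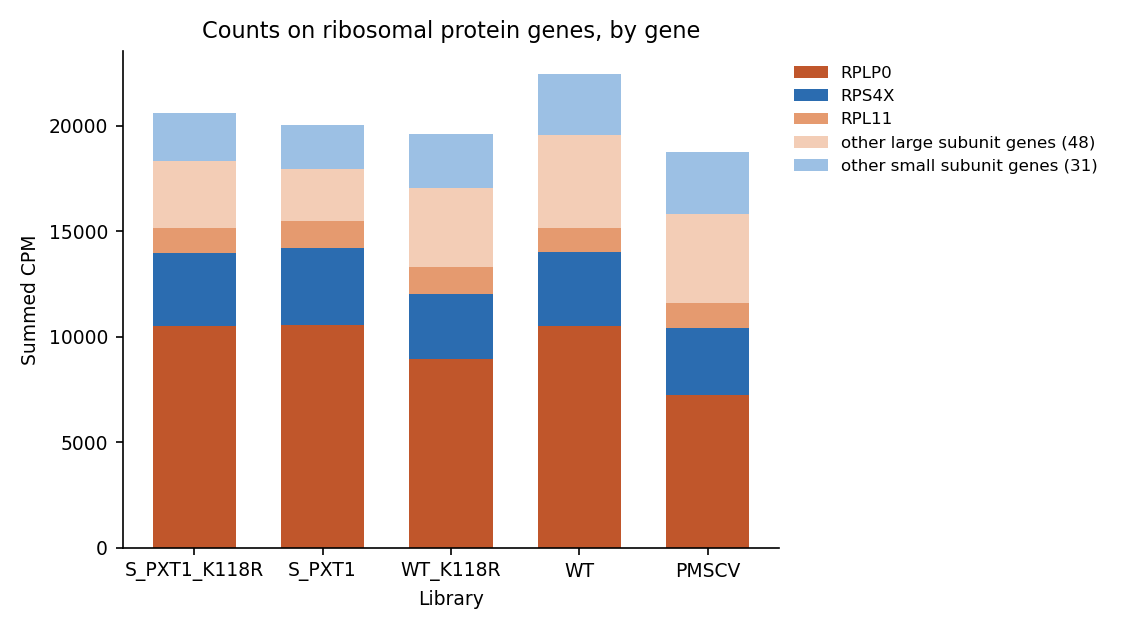
Summed CPM of the ribosomal protein genes in each library, stacked by RPLP0, RPS4X, RPL11 and the other genes of either subunit. The total moves between 18755 CPM in PMSCV and 22437 CPM in WT, while the 2 upper blocks, the other genes, are smallest in S_PXT1.

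Promoters of the mouse genes give the sequence behind these members. In a RefSeq table of the mouse build GRCm38.p6, with windows from 250 bases before to 50 after a gene start, 61 of the 82 members were matched by symbol, in 73 windows. Stretches from 100 bases before to 20 bases after the start are shown for the 3 most counted members and for 1 of the windows of Rpl35a, a member with 1 count in S_PXT1. They run 5′ to 3′ on the gene's strand. Capitals mark the strings CTTCCGG (the core of ETS factor sites), CTTTCC (a pyrimidine string) and GCCATCTT (a YY1 site) on either strand. A TOP tract begins the messenger RNA itself, so CTTTCC elsewhere or on the other strand is not one, and its share does not measure TOP starts.
Rplp0, chr5:115559367-115559486, plus strand: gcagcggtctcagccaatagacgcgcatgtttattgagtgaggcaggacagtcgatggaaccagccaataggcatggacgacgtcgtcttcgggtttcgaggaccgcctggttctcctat
Rps4x, chrX:102189372-102189491, minus strand: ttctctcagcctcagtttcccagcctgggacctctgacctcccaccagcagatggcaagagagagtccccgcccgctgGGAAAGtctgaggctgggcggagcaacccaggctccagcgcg
Rpl11, chr4:136053374-136053493, minus strand: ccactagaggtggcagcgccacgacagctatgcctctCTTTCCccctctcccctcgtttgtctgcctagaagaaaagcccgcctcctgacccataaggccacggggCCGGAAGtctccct
Rpl35a, chr16:33056382-33056501, plus strand: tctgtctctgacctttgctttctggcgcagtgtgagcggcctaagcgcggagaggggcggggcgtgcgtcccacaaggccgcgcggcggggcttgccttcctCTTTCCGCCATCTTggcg

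The Rplp0 stretch held none of the 3 strings, and the Rpl35a stretch shown held 2 of them side by side without overlap. Of the Rpl35a stretches not shown, chr16:33056353-33056472 held none and chr16:33056414-33056533 held the same pair. The stretches of Rps24, also not shown, held none of the strings, and that of Rps6 held CTTCCGG. Over the full windows CTTCCGG was found in 35.6% of the 73 member windows and in 8.86% of all 32851 windows. CTTTCC was found in 50.7% against 26.6%, GCCATCTT in 9.59% against 2.75%, and the TATA string TATAAA in 8.22% against 13.6%. In all, 10 strings were searched on both strands, and some overlap or contain each other. The other 6 were CTTCCG (61.6% of member windows against 16.9% of all), CTCTTTCC (17.8% against 3.12%), CCGGAAGT (16.4% against 3.89%), CTTTTCC (15.1% against 8.06%), CTTCCTTT (12.3% against 3.38%) and CCTTTTC (10.96% against 7.61%). The strings marked in the stretches were picked after these shares were known. A match is a string in the sequence and not a measured site, and the counts do not read promoters.

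Many reads fell on pseudogene rows rather than on the members. The table held 1166 rows named as a pseudogene of a member, of which 316 had counts. RPLP0P6, a copy of RPLP0, had 1346 counts in S_PXT1_K118R, 1638 in S_PXT1, 1701 in WT_K118R, 1710 in WT and 1296 in PMSCV, more than any member except RPLP0. The next by count were RPL13AP5, with 33, 20, 40, 49 and 47 counts, RPS2P5, with 30, 22, 38, 45 and 40, and RPL15P2, with 18, 34, 30, 33 and 33. Of reads on RPLP0 or its pseudogenes, 33.5% were on pseudogene rows in S_PXT1_K118R, 37.7% in S_PXT1, 36.1% in WT_K118R, 32.3% in WT and 39.0% in PMSCV. RPS4X and RPL11 lost almost nothing in this way, with at most 1.75% and 0.756%. RPL21 was the opposite case, with 0 counts on its own row in all 5 libraries (which allows up to 3 in each) and 8, 15, 20, 23 and 32 on its pseudogenes. A count on a member with many copies, such as RPL7, RPL23A or RPS3A, is therefore uncertain. Between 72.6% and 80.0% of RPL7 reads lay on pseudogene rows.

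Large subunit genes averaging 20 counts or more numbered 21, RPLP0 and RPL11 included. Those at or near the catalytic centre were RPL3, RPL8, RPL10 and RPL4. RPL3 had 57 counts in S_PXT1_K118R, 31 in S_PXT1, 95 in WT_K118R, 142 in WT and 106 in PMSCV. RPL8 had 45, 18, 56, 51 and 47 counts in that order, and RPL10, which joins the subunit late in its assembly, had 22, 10, 30, 37 and 21. RPL4, whose extension lines the exit tunnel of the new protein, had 58, 43, 89, 89 and 90. S_PXT1 was lowest of the 5 for all 4 of these genes.

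RPL5 carries 5S ribosomal RNA together with RPL11, and RPL23 also binds MDM2. RPL5 had 31 counts in S_PXT1_K118R, 15 in S_PXT1, 42 in WT_K118R, 44 in WT and 36 in PMSCV, and RPL23 had 20, 8, 29, 38 and 30. Both were lowest in S_PXT1, which RPL11 was not on the CPM scale, with 1191, 1263, 1307, 1152 and 1174 CPM.

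RPL12 sits at the base of the stalk and RPL10A forms the stalk where spent transfer RNA leaves. RPL12 had 54 counts in S_PXT1_K118R, 49 in S_PXT1, 74 in WT_K118R, 75 in WT and 64 in PMSCV, and RPL10A had 26, 42, 53, 78 and 63. The stalk partners of RPLP0 were counted little: RPLP1 had 14, 10, 13, 19 and 16 counts and RPLP2 had 7, 3, 14, 13 and 11. Per length, RPLP1 stood at 8.63 to 13.9 FPKM and RPLP2 at 3.44 to 12.3 FPKM, far below RPLP0.

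Other large subunit genes lay between means of 20 and 80 counts. RPL15 had 67 counts in S_PXT1_K118R, 56 in S_PXT1, 99 in WT_K118R, 115 in WT and 62 in PMSCV. RPL30 had 36, 41, 48, 71 and 49 counts, and RPL7A had 26, 27, 61, 60 and 70. RPL7A is one of the genes for which both S_PXT1 libraries lay below the other 3 in counts and in CPM. RPL13A, known for silencing translation of inflammatory transcripts when released from the ribosome, had 34, 26, 45, 56 and 50, and RPL19 had 28, 24, 42, 46 and 41. RPL13 had 32, 14, 31, 30 and 26 counts and RPL26, at the end of the exit tunnel, had 19, 15, 25, 42 and 19. For RPL13 and RPL26 the S_PXT1_K118R library was not below PMSCV in counts. RPL24, at the bridge between the subunits, had 15, 13, 24, 33 and 19, RPL27A had 11, 16, 33, 34 and 21, RPL32 had 17, 14, 29, 36 and 21, and RPL37A had 13, 21, 23, 39 and 18.

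Of the small subunit, 17 genes had a mean of at least 20 counts, RPS4X included. RPS2 and RPS3 line the channel where messenger RNA enters. RPS2 had 107 counts in S_PXT1_K118R, 58 in S_PXT1, 68 in WT_K118R, 89 in WT and 61 in PMSCV, and RPS3 had 41, 27, 42, 42 and 40. RPS2 was the only one of the 17 whose highest count lay in S_PXT1_K118R, and between 30.5% and 52.7% of its reads lay on pseudogene rows. In CPM, RPS3 was also highest in S_PXT1_K118R, at 161 against 105 in S_PXT1, 124 in WT_K118R, 123 in WT and 142 in PMSCV. RPS23, in the decoding centre, had 18, 21, 32, 52 and 43 counts. RPS14, on the platform of the subunit, had 21, 27, 37, 33 and 35.

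RPS6, the protein phosphorylated by S6 kinase downstream of mTOR, had 35 counts in S_PXT1_K118R, 55 in S_PXT1, 90 in WT_K118R, 89 in WT and 103 in PMSCV. Both S_PXT1 libraries were below the other 3. RPS19, RPS24 and RPS7 are among the genes mutated in Diamond-Blackfan anaemia, a failure of red cell production. RPS19 had 48, 71, 87, 80 and 72 counts, and RPS7 had 17, 15, 24, 27 and 18. RPS24 differed from these, with 8 counts in S_PXT1_K118R and 8 in S_PXT1, against 43 in WT_K118R, 55 in WT and 40 in PMSCV.

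Other small subunit genes were similar in size. In the head of the subunit, RPS16 had 18 counts in S_PXT1_K118R, 10 in S_PXT1, 23 in WT_K118R, 26 in WT and 26 in PMSCV, and RPS18 had 29, 37, 51, 59 and 38. RPS15A had 19, 9, 22, 37 and 28 counts. RPSA, also known as the laminin receptor, had 30, 29, 33, 51 and 46. Among these genes WT, the library with the largest total, had the highest count of the 5 libraries except for RPS16, at which WT and PMSCV were equal. In CPM, PMSCV was above WT for RPSA (164 against 149) and for RPS16 (92.5 against 76.0).

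The other 44 members had means below 20 counts and summed to 302 counts in S_PXT1_K118R, 239 in S_PXT1, 485 in WT_K118R, 580 in WT and 495 in PMSCV. RPL21, RPL3L and RPL39L had 0 counts in all 5 libraries. A further 8 (RPL9, RPL36A, RPL39, RPS21, RPS26, RPS27, RPS27L and RPS29) had 0 in at least 1. Of the paralogs encoded by separate genes, RPL10L had 2, 2, 1, 4 and 2 counts and RPL36AL had 3, 4, 4, 8 and 6. The values of both lie near the floor of 3 counts that a count of 0 allows.

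S_PXT1 was first set against PMSCV, the group that carries neither S_PXT1 nor WT in its label. RPLP0 was 1.46-fold higher with S_PXT1 (95% interval 1.38 to 1.55) and RPS4X 1.14-fold higher (1.04 to 1.25). Non-member genes averaging 200 counts or more had a summed fold of 1.20 (1.19 to 1.21), with the interval above 1 for 172 of 270. Most other members were lower, among them RPS24, RPL23, RPL3 and RPS15A. RPS24 had a fold of 0.22 (0.09 to 0.47), RPL23 of 0.29 (0.12 to 0.65), RPL3 of 0.32 (0.21 to 0.48) and RPS15A of 0.35 (0.15 to 0.77). Summed, the 79 members other than RPLP0, RPS4X and RPL11 had 1172 counts with S_PXT1 against 2012 with PMSCV, a fold of 0.64 (0.59 to 0.69). The large subunit part of that sum had a fold of 0.59 (0.53 to 0.64) and the small subunit part 0.72 (0.64 to 0.80).

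Of the 38 members averaging 20 counts or more, 8 were at least 2-fold lower with S_PXT1 and 0 higher, where 7.82% and 3.49% of all 1547 such genes were. The interval lay below 1 for 12 of the 38 and above 1 for 2, against 10.8% and 23.1% of all such genes. Their median log2 ratio was -0.45, against 0.20 over all such genes. At the level of any difference, 30 of the 38 were lower and 8 higher, where 31.2% and 68.8% of all such genes were. Over the 79 members averaging 1 CPM or more, 26 were 2-fold lower and 0 higher, where 43.8% and 8.64% of all 13352 genes were, so with small counts included the share was not above the background. With the counting interval also clear of 1, 14 were lower and 0 higher, where 7.33% and 0.861% of all genes were. The shares over all genes at 1 CPM are not matched to the members for counts, here or in the comparisons below. Of the 79 members 38 averaged 20 counts or more, against 1547 of the 13352 genes.

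Summed over all large subunit genes, S_PXT1 had 3670 counts against 3550 in PMSCV, a fold of 1.13 (1.08 to 1.19) that turned to 0.69 without RPLP0 and to 0.94 with summed FPKM. The small subunit had 1476 counts against 1724, a fold of 0.94 (0.87 to 1.01). Among members with smaller means the lowest were RPL39, with 0 counts against 5, RPL35A, with 1 against 16, and RPS27L, with 0 against 2. Among those at the other end were RPL38 with 8 against 6 and RPS21 with 4 against 3. Among all other genes with a mean of 20 to 200 counts the summed fold was 1.0999 (1.09 to 1.11), and among those below 20 it was 0.51 (0.50 to 0.52). The members with means of 20 to 200 counts had 0.67 (0.62 to 0.73) and those below 20 counts had 0.53 (0.45 to 0.62). Beside this, the epithelial, prostate, smooth muscle and plasma cell markers given above were at or near 0 in S_PXT1 and counted in PMSCV.

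**Figure D3:**
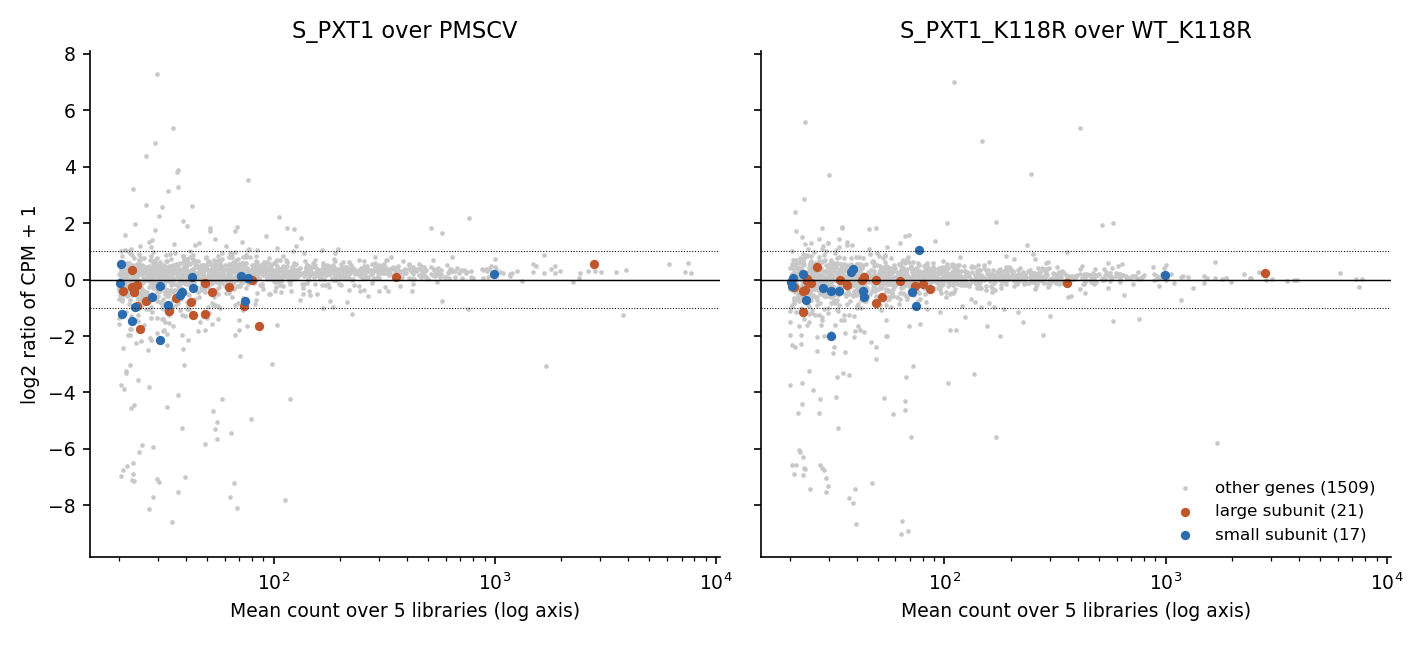
Log2 ratio of CPM plus 1 against the mean count over 5 libraries (log axis) for all genes averaging 20 counts or more, with large subunit genes in orange and small subunit genes in blue and dotted lines at a 2-fold difference. With S_PXT1 over PMSCV (left) 30 of 38 members lie below 0, and with S_PXT1_K118R over WT_K118R (right) 27 of 38 do, while RPLP0 and RPS4X lie above 0 in both.

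WT was next set against PMSCV, and here the members were close to level apart from RPLP0. RPLP0 was 1.45-fold higher with WT (1.37 to 1.53), RPL15 1.53-fold (1.11 to 2.11), RPL26 1.82-fold (1.03 to 3.31) and RPS4X 1.1-fold (1.01 to 1.20). The 270 non-member genes averaging 200 counts or more had a summed fold of 1.13 (1.12 to 1.14) here. RPS6 was lower, with a fold of 0.71 (0.53 to 0.95). None of the 38 members averaging 20 counts or more was past 2-fold, where 2.71% of all such genes were higher and 2.65% lower. The interval lay above 1 for 4 and below 1 for 1, against 14.4% and 5.56%, and the median log2 ratio was 0.04 against 0.11.

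The other 79 members summed to 2487 counts with WT against 2012 with PMSCV, a fold of 1.02 (0.96 to 1.08). Over all large subunit genes the fold was 1.27 (1.22 to 1.32), and 1.03 (0.96 to 1.097) without RPLP0. The small subunit fold was 1.05 (0.98 to 1.11). With total counts in place of the scaled library sizes, every log2 ratio of this comparison was lower by 0.12, and the small subunit fold was then 0.97. Over the 79 members that passed 1 CPM, 7 were 2-fold higher and 3 lower, where 20.3% and 23.2% of all genes were. With the interval also clear of 1, 0 were higher and 1 lower, where 1.45% and 2.28% of all genes were. RPS27 had 2 counts against 0, RPL36A 6 against 1 and RPS27L 6 against 2 at the high end, and RPS21 had 0 against 3, RPL23A 3 against 8 and RPL18 15 against 26 at the low end.

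The S_PXT1 and WT constructs were then compared without the substitution. Large and small subunit genes were lower with S_PXT1, and RPLP0, RPS4X and RPL11 were level. RPLP0 had a fold of 1.01 (0.96 to 1.06), RPS4X of 1.04 (0.95 to 1.13) and RPL11 of 1.096 (0.94 to 1.27). RPS24 had a fold of 0.19 (0.08 to 0.41), RPL23 of 0.28 (0.11 to 0.61), RPL3 of 0.29 (0.19 to 0.43) and RPL10 of 0.36 (0.16 to 0.74). The S_PXT1 library is the one used against PMSCV, so its low values are not measured again here.

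Of the 38 members, 8 were at least 2-fold lower and 0 higher with S_PXT1 than with WT, where 7.05% and 3.04% of all genes averaging 20 counts or more were. The interval lay below 1 for 14 and above 1 for 0, against 10.2% and 13.2%. Any difference was downward for 32 of 38, against 42% of all such genes, and the median log2 ratio was -0.63 against 0.07. The other 79 members totalled 1172 counts, against 2487 with WT, a fold of 0.63 (0.59 to 0.67), 0.56 (0.51 to 0.62) in the large and 0.73 (0.65 to 0.81) in the small subunit. With small counts included, 23 of 79 were lower and 1 higher, where 42.5% and 9.02% of all genes were. Of these, 14 lower and 0 higher members also had an interval clear of 1, against 6.3% and 0.749% of all genes. RPL36A and RPS27L had 0 counts against 6, and RPL39 had 0 against 4, while RPS21 had 4 against 0, RPL18 15 against 15 and RPL38 8 against 8.

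The comparison of S_PXT1_K118R with WT_K118R shares no library with the last. Here the difference was smaller and fewer members differed beyond counting error. RPS24 was again low, with a fold of 0.25 (0.10 to 0.53), followed by RPL27A at 0.44 (0.20 to 0.90), RPS6 at 0.52 (0.34 to 0.77) and RPL7A at 0.57 (0.34 to 0.91). RPS2 was 2.09-fold higher with S_PXT1_K118R (1.53 to 2.87), RPLP0 1.17-fold (1.11 to 1.24) and RPS4X 1.13-fold (1.03 to 1.24). RPL3, RPL23, RPL8 and RPL5, all low in S_PXT1 against WT, had folds of 0.80 (0.56 to 1.12), 0.91 (0.49 to 1.67), 1.07 (0.70 to 1.61) and 0.98 (0.60 to 1.59).

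Of the 38 members, 2 were at least 2-fold lower and 1 higher with S_PXT1_K118R than with WT_K118R, where 7.82% and 2.78% of all such genes were. The interval lay below 1 for 4 and above 1 for 3, against 11.8% and 11.5%. Any difference was downward for 27 of 38, against 44.7%. The other 79 members totalled 1384 counts, against 2114 with WT_K118R, a fold of 0.87 (0.81 to 0.93), and the median log2 ratio of the 38 was -0.17 against 0.04. Over all 79 that passed 1 CPM, 8 were lower and 4 higher, where 44% and 8.94% of all genes were. Of these, 3 lower members and 1 higher also had an interval clear of 1, against 6.53% and 0.801% of all genes. Near the floor, RPS27L had 0 counts against 5, RPS29 0 against 3 and RPL9 0 against 2, and RPL36A had 1 against 0, RPS28 9 against 3 and RPL10L 2 against 1.

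Across the 38 members, 23 were lower in both of these comparisons (60.5%) and 2 higher in both, where 23.5% of all 1547 genes were lower in both and 36.8% higher in both. Pearson's r between the log2 ratios of both comparisons was 0.28 and Spearman's rho 0.05 over these 38 genes, given as a description, since within a comparison the genes share its libraries and many have low counts. In CPM, both S_PXT1 libraries lay below the other 3 for 16 of the 38 members, where 12.6% of all genes averaging 20 counts or more did. These 16 were 10 genes of the large and 6 of the small subunit. Both lay above the other 3 for RPLP0 alone, by a narrow margin over WT (10516 and 10573 CPM against 10490), where 24.6% of all such genes did. Marker sums of the other cell types were also lower in both S_PXT1 libraries than in the other 3. Fibroblast markers still had 195 counts in S_PXT1_K118R and 187 in S_PXT1. For smooth muscle and plasma cells WT_K118R was low as well, with 2 and 22 counts, where WT had 278 and 425. The part of these markers in the member counts was not tested.

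**Figure D4:**
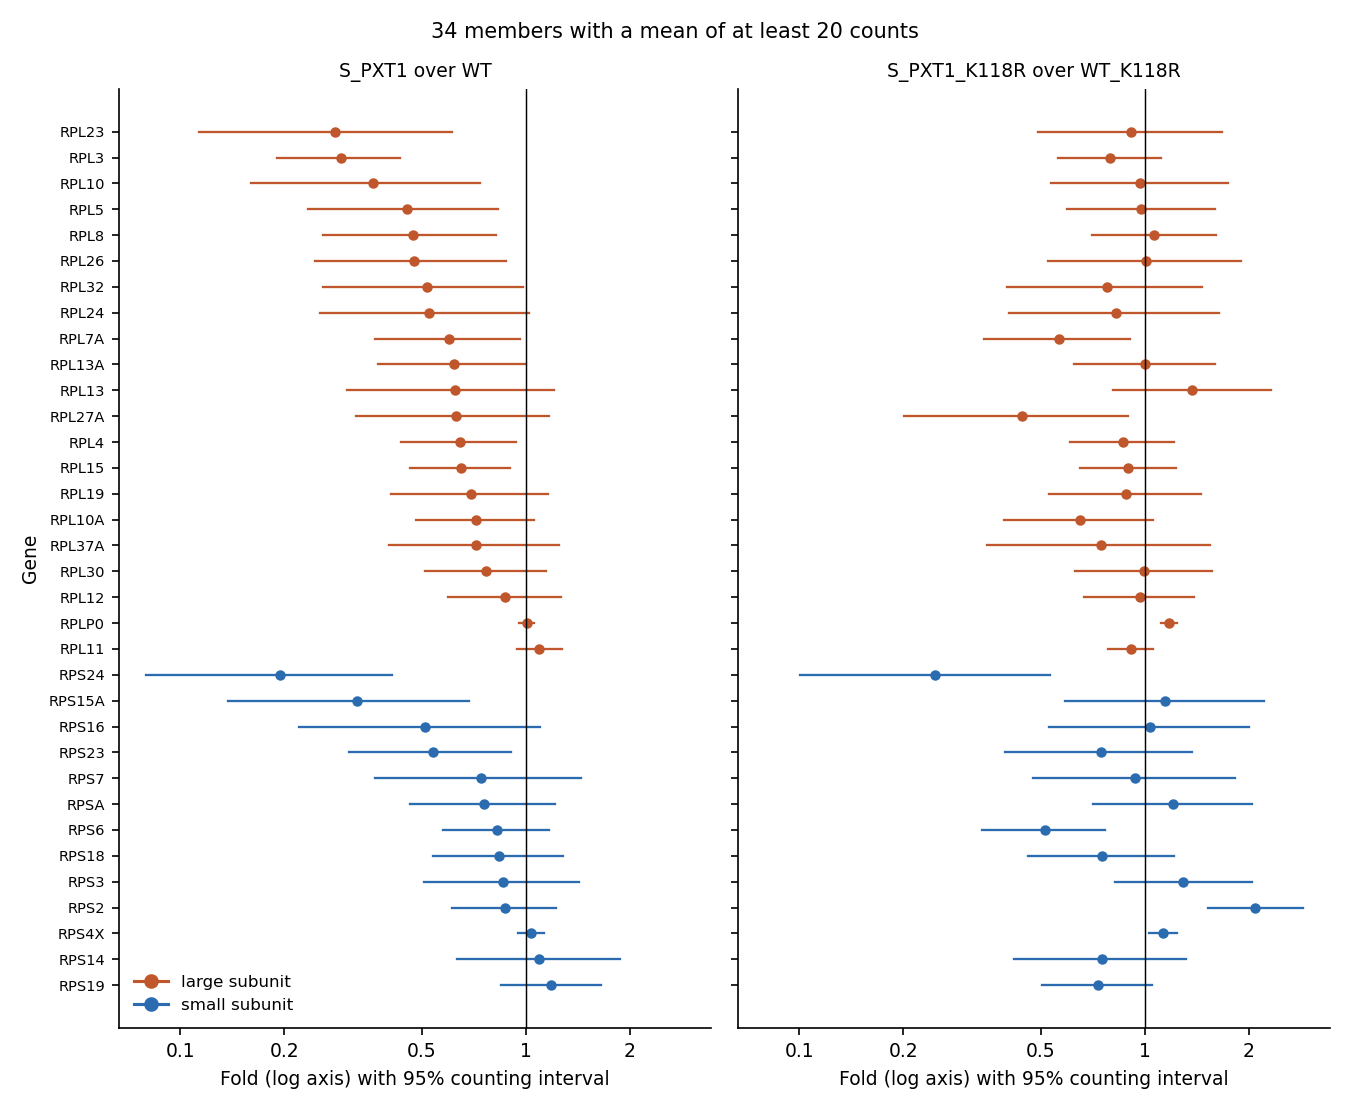
Fold of 34 of the 38 members averaging 20 counts or more, with the 95% counting interval on a log axis, for S_PXT1 over WT (left) and S_PXT1_K118R over WT_K118R (right), ordered by the left panel within each subunit. RPS24 is low in both panels, the interval lies below 1 for 13 of the genes drawn on the left and 4 on the right, and RPS2 is high on the right only, with the difference between panels not tested.

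The substitution was described in either background. In S_PXT1, 6 of the 21 large subunit genes averaging 20 counts or more were higher with it beyond counting error. RPL7A was level, with 26 counts in S_PXT1_K118R and 27 in S_PXT1. RPL8 and RPL23 were 2.52-fold higher with S_PXT1_K118R (1.43 to 4.63 and 1.06 to 6.62), RPL13 2.30-fold (1.20 to 4.67), RPL10 2.22-fold (1.01 to 5.25) and RPL5 2.08-fold (1.09 to 4.15). RPS2 was 1.86-fold higher (1.34 to 2.61) and RPL3 1.85-fold (1.18 to 2.97). RPS6 and RPS19 were lower, with folds of 0.642 (0.408 to 0.998) and 0.682 (0.463 to 0.997), whose upper bounds lie just under 1. RPLP0 had a fold of 0.99 (0.94 to 1.05) and RPS24, at 8 counts in either library, one of 1.01 (0.33 to 3.08).

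Of the 38 members, 6 were at least 2-fold higher and 0 lower with S_PXT1_K118R than with S_PXT1, where 3.36% and 4.78% of all such genes were. The interval lay above 1 for 7 and below 1 for 2, against 7.24% and 9.5%. By subunit, the interval lay above 1 for 6 of 21 large subunit and 1 of 17 small subunit genes. The other large subunit members totalled 810 counts, against 634 in S_PXT1, a fold of 1.29 (1.16 to 1.43), and the other small subunit members to 574 against 538, a fold of 1.08 (0.95 to 1.21). Among all 79 that passed 1 CPM, 13 were higher and 4 lower, where 15.2% and 17.6% of all genes were. Of these, 7 higher and 0 lower members had an interval clear of 1, against 1.15% and 1.27% of all genes. RPL35A had 10 counts against 1, RPS27 2 against 0 and RPS26 1 against 0, and RPS29 had 0 against 4, RPS21 1 against 4 and RPL14 3 against 8. The S_PXT1 library also enters the comparisons with PMSCV and with WT above.

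In the WT background the members were slightly lower with the substitution. RPLP0 had a fold of 0.85 (0.81 to 0.90), RPS4X of 0.87 (0.80 to 0.95), RPL3 of 0.68 (0.52 to 0.89), RPL10A of 0.69 (0.48 to 0.99) and RPS23 of 0.62 (0.39 to 0.99). None of the 38 members was past 2-fold, where 2.46% of all such genes were higher and 2.84% lower. The interval lay below 1 for 5 and above 1 for 0, against 8.47% and 8.53%. Any difference was downward for 27 of 38, against 49.7% of all such genes, with a median log2 ratio of -0.19 against 0.00.

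Summed, large subunit genes had 4721 counts with WT_K118R against 5479 with WT, a fold of 0.873 (0.840 to 0.908). Small subunit genes had 1889 against 2193, also a fold of 0.873 (0.820 to 0.929). The other 79 members had a fold of 0.861 (0.813 to 0.913), close to the 0.879 (0.844 to 0.915) of RPLP0, RPS4X and RPL11 summed, although RPL11 alone had 1.13 (0.99 to 1.30). Of the 79 that passed 1 CPM, 6 were lower and 2 higher, where 20.9% and 19.2% of all genes were. Of these, 2 lower and 0 higher members had an interval clear of 1, against 2.4% and 1.91% of all genes. RPL36A had 0 counts against 6, RPL39 0 against 4 and RPL10L 1 against 4 at the low end, and RPS21 had 2 against 0, RPL23A 8 against 3 and RPL38 14 against 8 at the high end. Marker sums of other cell types moved in both directions between these libraries. Squamous markers had 371 counts in WT_K118R against 938 in WT, with KRT13, KRT4, SPRR3 and CRNN lower and KRT5, KRT6A and KRT17 higher in WT_K118R. Smooth muscle markers had 2 against 278 counts and plasma cell markers 22 against 425, while fibroblast markers had 587 against 453 and prostate markers 92 against 77. Their part in these folds was not tested.

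**Figure D5:**
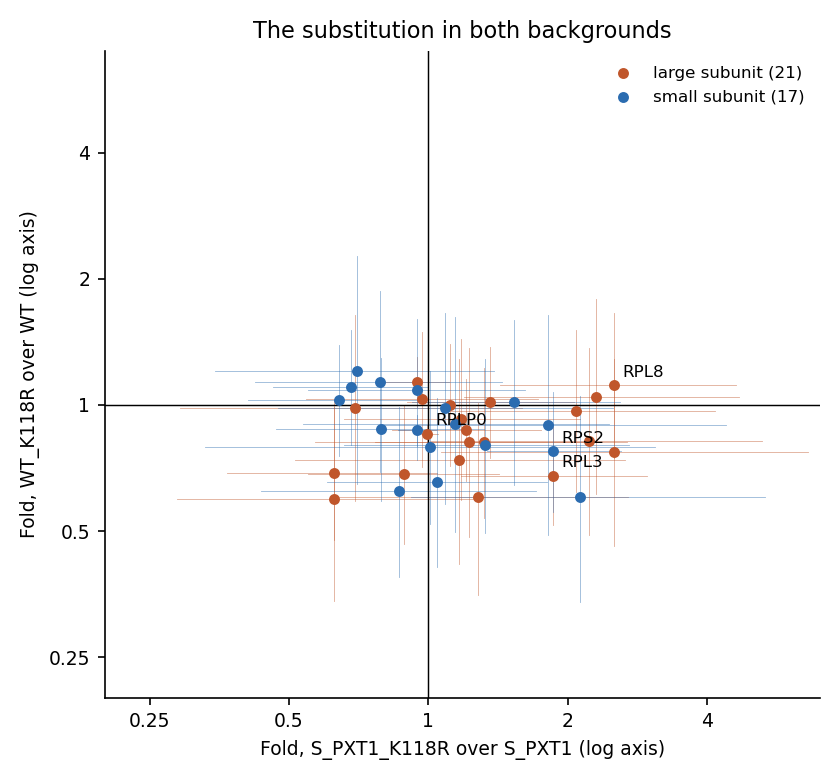
Fold with the substitution in the S_PXT1 background (x axis) and in the WT background (y axis) for 38 members averaging 20 counts or more, both on log axes, with 95% counting intervals as thin lines. RPL3 lies right of 1 and below 1, at 1.85 and 0.68, with both intervals clear of 1, and no member is past 2-fold on the y axis.

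Other parts of the translation machinery were counted beside these genes. A chosen list held 20 messenger RNAs taken to begin with a TOP tract, from genes outside the member rule, and all had counts. PABPC1, the poly(A)-binding protein, had 5818 counts in S_PXT1_K118R, 8495 in S_PXT1, 9339 in WT_K118R, 7673 in WT and 6150 in PMSCV. EEF1G, a subunit of elongation factor 1, had 3001, 3300, 4108, 4172 and 3036 counts, HNRNPA1, a splicing protein, had 670, 393, 760, 591 and 402, and EEF2, the translocation factor, had 240, 172, 290, 349 and 281. The 15 with a mean below 200 counts had a summed fold of 0.64 (0.57 to 0.72) with S_PXT1 over PMSCV and 0.74 (0.66 to 0.83) with S_PXT1 over WT. The 5 above it summed to 1.37 (1.33 to 1.40) and 1.28 (1.25 to 1.32), but most of their counts were on PABPC1, with folds of 1.51 and 1.48. Their median log2 ratio was 0.10 and 0.08. In either comparison the interval lay above 1 for 2 of the 5 and below 1 for 1, which was EEF2, at 0.67 (0.55 to 0.81) and 0.66 (0.54 to 0.79). With S_PXT1_K118R over WT_K118R the 15 summed to 0.71 (0.64 to 0.80) and the 5 to 0.89 (0.87 to 0.91), so here both sums were lower. The median log2 ratio of the 5 was -0.007. The interval lay below 1 for PABPC1, at 0.83 (0.80 to 0.85), and above 1 for HNRNPA1, at 1.17 (1.05 to 1.30).

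Summed counts of ribosome biogenesis factors were near level with S_PXT1 over PMSCV, a sum carried mostly by NOP58 and UBTF. Their median log2 ratio was -0.39, against -0.56 over all genes averaging 1 CPM or more. Over 30 genes, 565 counts with S_PXT1 stood against 610 with PMSCV, a fold of 1.02 (0.90 to 1.14), and 504 with S_PXT1_K118R against 868 with WT_K118R, a fold of 0.77 (0.69 to 0.86). NOP58, of the methylation guide complexes for ribosomal RNA, had 217, 211, 265, 218 and 195 counts in S_PXT1_K118R, S_PXT1, WT_K118R, WT and PMSCV. UBTF, a factor of RNA polymerase I, had 153, 176, 233, 189 and 152, NOP56 had 51, 73, 67, 67 and 55, and NCL had 20, 27, 53, 50 and 52. With S_PXT1 over PMSCV, 10 of these genes were 2-fold lower and 4 higher, against 43.8% and 8.64% of all genes. With S_PXT1_K118R over WT_K118R, 17 were lower and 0 higher, against 44% and 8.94%, and the median log2 ratio was -1.22 against -0.49. Only 5 of the 30 averaged 20 counts or more.

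Mitochondrial ribosomal proteins, which serve the separate ribosome of that organelle, were counted much less. Their 153 rows summed to 82 counts in S_PXT1_K118R, 85 in S_PXT1, 228 in WT_K118R, 243 in WT and 195 in PMSCV, and 74 rows had none. The summed fold was 0.48 (0.37 to 0.62) with S_PXT1 over PMSCV and 0.48 (0.37 to 0.62) with S_PXT1_K118R over WT_K118R. None of these rows averaged 20 counts. All non-member genes averaging above 0 and below 20 counts had 0.51 (0.50 to 0.52) and 0.53 (0.525 to 0.544), so the folds were near this background. The most counted were MRPL13, with 4, 7, 6, 7 and 10 counts, MRPL3, with 1, 2, 11, 16 and 3, MRPS27, with 6, 4, 4, 6 and 7, and MRPL24, with 3, 4, 6, 9 and 4. Of the ribosomal proteins that the symbol rule leaves out, FAU, which yields a small subunit protein, had 5, 3, 9, 9 and 6 counts. The relative RPL7L1 had 1, 2, 12, 5 and 1 counts and RPL22L1 had 0, 0, 3, 6 and 4.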

How the data were processed

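RNA was sequenced from 5 libraries, 1 for each group. Per the file headers, the authors deposited raw counts and FPKM values per gene in 1 table. Tools named, with no role, in the submitters' processing notes are FastQC, HISAT2 2.2.1 and cutadapt 1.9. The sources used here do not give the counter, strand setting, genome build or annotation. Genes carry human identifiers. Of FPKM values compared between libraries, 99.99% were proportional to the count of the row within 0.01 on the log2 scale. There were 0 value columns without a library.

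Library sizes were scaled with edgeR 4.0.16 (R 4.3.3). A single count was worth 2.84 to 3.99 CPM before scaling. Log2 ratios used CPM with a pseudocount of 1 CPM, which understates low genes, for genes with a mean of at least 1 CPM. Folds were taken on scaled counts with the exact conditional interval of a ratio of 2 Poisson counts (scipy 1.17.1), and shares with the exact Clopper-Pearson interval. Both cover counting error only, and with 1 library a group no other spread can be estimated. PCR copies were not marked by molecular identifiers, so copies count as separate reads and the intervals may be too narrow. The code for the 2-fold calls and counting intervals was checked on simulated Poisson counts for S_PXT1 over PMSCV. Such counts vary by counting error alone, so the check does not show how the calls behave in these libraries. DESeq2 1.42.0 size factors were an alternative.

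Members averaging 20 counts or more are named with all values, and of the others the 3 highest and 3 lowest ratios per comparison. Of each further list, and of the pseudogene rows, the 4 most counted are named. A few genes that these rules name are not reported here singly, and all counts and sums include them. Members, lists and promoter strings were chosen with earlier results of these data known. The split at a mean of 200 counts was chosen after seeing the data.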

Additional observations from a re-analysis of the deposited data

Results flagged for a closer look

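With 1 library a group, no difference between backgrounds was tested. The results here are those in which the same contrast ran in opposite directions in both backgrounds, with both counting intervals clear of 1.

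RPL3 had a fold of 1.85 with S_PXT1_K118R over S_PXT1 (57 against 31 counts) and of 0.678 with WT_K118R over WT (95 against 142). The large subunit members other than RPLP0 and RPL11 summed to folds of 1.29 and 0.851 in these comparisons. All members other than RPLP0, RPS4X and RPL11 summed to 1.19 and 0.861. The construct contrast also turned: all large subunit genes had a fold of 0.893 with S_PXT1 over WT and of 1.06 with S_PXT1_K118R over WT_K118R. For all 82 members the folds were 0.894 and 1.05. RPLP0 supplied 52.7% and 51.0% of the member counts in S_PXT1 and S_PXT1_K118R, against 46.8% in WT and 45.7% in WT_K118R. Without RPLP0 the large subunit fold was below 1 in both construct contrasts, at 0.67 and 0.87.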

How the results depend on the processing

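Of 164 alternative values, 100 stayed within the interval of the reported value or within 1.5 times the reported count. No paired analysis was possible because each group has 1 library, and leaving out a replicate was not run for the same reason. The cause was not tested where a value moved under another scaling or unit.

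Large subunit folds. Without RPLP0 the folds were 0.692 for S_PXT1 and 1.03 for WT over PMSCV, 0.675 for S_PXT1 over WT and 0.869 for S_PXT1_K118R over WT_K118R. With the substitution they were 1.17 in S_PXT1 and 0.910 in WT. Without RPL11 as well, the first 5 were 0.585, 1.04, 0.564, 0.854 and 1.29. Total counts gave 1.07 and 1.17 for S_PXT1 and WT over PMSCV and 1.11 for S_PXT1_K118R over WT_K118R. DESeq2 size factors gave 0.936 for S_PXT1 over WT. Summed FPKM gave 0.941 and 1.06 for S_PXT1 and WT over PMSCV. With pseudogene rows added, WT over PMSCV was 1.20, S_PXT1 over WT 0.967 and S_PXT1_K118R over S_PXT1 0.979.

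Small subunit folds. Without RPS4X they were 0.716 (S_PXT1 over PMSCV), 0.725 (S_PXT1 over WT), 0.889 (S_PXT1_K118R over WT_K118R) and 1.08 (S_PXT1_K118R over S_PXT1). WT over PMSCV was 0.965 with total counts and 0.981 with FPKM.

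Members past the threshold, higher and lower together, in the same order of comparisons, numbered 26, 10, 24, 12, 17 and 8. At 1.5-fold they were 45, 17, 46, 21, 32 and 23. With the interval also excluding 1 they were 14, 1, 14, 4, 7 and 2, and the single gene in WT over PMSCV was lower, whereas 7 of 10 were higher at 2-fold alone. At 3-fold the first 2 and last 2 were 16, 4, 7 and 4. A pseudocount of 5 CPM and FPKM each gave 6 for WT over PMSCV, and FPKM gave 7 for S_PXT1_K118R over WT_K118R.

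Shares. With pseudogene rows, large subunit shares were 2.19%, 2.18%, 1.98%, 2.21% and 1.995% in S_PXT1_K118R, S_PXT1, WT_K118R, WT and PMSCV, and small subunit shares 0.661%, 0.637%, 0.615%, 0.708% and 0.739%. Of summed FPKM, large subunit genes took 0.901%, 0.833%, 0.866%, 0.931% and 0.883%. Depth limits members below 20 counts, whose single folds were within counting error in most cases.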

Other observations

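The kinases that phosphorylate RPS6 were counted more evenly than RPS6 itself, and these genes were chosen after their values were seen. RPS6KB1, the S6 kinase of the mTOR pathway, had 226 counts in S_PXT1_K118R, 201 in S_PXT1, 263 in WT_K118R, 251 in WT and 168 in PMSCV. Its fold was 1.31 with S_PXT1 over PMSCV (95% interval 1.06 to 1.62) and 1.14 with S_PXT1_K118R over WT_K118R (0.95 to 1.37). RPS6KA3, a kinase of the ERK pathway, had 154, 136, 193, 209 and 131 counts. Its fold with S_PXT1 over WT was 0.87 (0.69 to 1.08).

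RPL36A-HNRNPH2, a model that joins RPL36A to its neighbour, was counted more than RPL36A. It had 44 counts in S_PXT1_K118R, 41 in S_PXT1, 16 in WT_K118R, 44 in WT and 27 in PMSCV, where RPL36A had 1, 0, 0, 6 and 1. With WT_K118R over WT its fold was 0.37 (0.19 to 0.67). The models overlap, so their reads cannot be told apart.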
